A study of Homo sapiens with 12 samples.

Results

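The genes described here are 9 members of the MHC class I antigen presentation pathway, taken by symbol from a table of 28901 named genes in human adipocytes with and without linc-ADAIN knockdown (KD). They are the heavy chains HLA-B, HLA-C, HLA-E and HLA-F, the light chain B2M, the peptide transporter subunits TAP1 and TAP2, the loading factor TAPBP and the lipid-presenting heavy chain CD1D. The rule used the symbols alone, but the members were chosen with earlier results of these data known. Counts of members that passed, given below beside the shares of all genes, are therefore a description. All 9 had enough counts to be tested in every comparison, and the lowest count of any member in any library was 43, for CD1D.

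MHC class I molecules carry peptides cut from proteins made inside the cell to its surface, where CD8 T cells and natural killer cells inspect them. The proteasome cuts the peptides, the TAP transporter moves them into the endoplasmic reticulum, and tapasin (encoded by TAPBP) holds an empty heavy chain and its light chain beside the transporter until a peptide binds. CD1D pairs with the same light chain but presents lipids to natural killer T cells, and adipocytes are known to express it. Interferons and NF-κB, which is switched on by bacterial lipopolysaccharide (LPS) through Toll-like receptors, are known to raise transcription of many genes of the pathway.

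RNA-seq was performed at day 14 of differentiation on adipocytes from ASC52telo hTERT, 1 immortalized line of human adipose stromal cells. Cells received a lentiviral vector with ZsGreen and either a scramble shRNA (scramble control) or 1 shRNA against the lincRNA linc-ADAIN (linc-ADAIN KD), and ZsGreen-positive cells were sorted. Each was left without LPS or exposed to LPS at 100 ng/mL for 4 h, which gives 4 groups of 3 libraries and 12 libraries in all. The study sought the genes that linc-ADAIN KD alters in adipocytes, at rest and under an inflammatory stimulus. Within each group the libraries are the triplicate of 1 experiment, and the p-values therefore measure the spread inside that experiment only. The knocked-down transcript was not analysed here, and the knockdown was therefore not checked in these libraries.

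The depth of a library, as the sum of its counts over genes with a name (M, mega), was 48.1 to 53.8 M in scramble control, 31.5 to 44.5 M in scramble with LPS, 33.4 to 50.5 M in KD and 28.4 to 45.3 M in KD with LPS. The 6 adipocyte markers (ADIPOQ, PLIN1, FABP4, LPL, CIDEC and PPARG) summed to 2785 to 3908 CPM (counts per M, scaled by the TMM method) in the scramble libraries and 3316 to 3754 with LPS, against 553 to 1640 in KD and 460 to 1079 in KD with LPS. Of all genes tested, 12.1% passed edgeR's test (adjusted p under 0.05) as higher and 15.1% as lower in KD without LPS. With LPS these shares were 12.7% and 14.2%. LPL had at most 82 counts in a library, and the 5 other adipocyte markers passed the test as lower in KD both without and with LPS. The paper reports the opposite for ADIPOQ, PLIN1, FABP4 and PPARG, with KD raising their mRNA by qPCR and their protein by western blot. Those assays used adipocytes of the same line at the same day of differentiation. Why the sequenced libraries differ from them was not tested. The 6 stromal markers (PDGFRA, PDGFRB, THY1, ENG, NT5E and DCN) summed to 5016 to 6023 CPM in scramble, 4755 to 5368 in scramble with LPS, 6327 to 7200 in KD and 7367 to 8199 in KD with LPS. DCN held much of this sum, at 2671 ± 487 CPM in scramble and 4904 ± 413 in KD, and single stromal markers went both ways. In each KD comparison 2 of the 6 passed as higher and 3 as lower, beside the shares of all genes given above. The 3 lower ones were THY1 (log2 fold change -2.37 without LPS and -2.53 with LPS), ENG (-1.36 and -1.42) and PDGFRB (-0.90 and -0.82). Of 7 leukocyte markers, CD3E was at 0 in all libraries and PTPRC reached at most 12 counts. Their sum, nearly all CD68, was 51.9 to 68.2 CPM over the scramble libraries and 26.0 to 35.5 CPM over the KD libraries. CD14 went the other way and passed as higher in KD with LPS, at 0.348 ± 0.12 CPM in scramble with LPS and 2.25 ± 0.70 in KD with LPS (adjusted p = 0.0014). Without LPS, CD14 was at 1.26 ± 0.22 CPM in scramble and 2.02 ± 0.83 in KD, which did not pass edgeR's test (adjusted p = 0.22). In scramble it fell with LPS (log2 fold change -1.85, adjusted p = 0.026), to 9 to 15 counts in a library. The 3 endothelial markers (PECAM1, VWF and CDH5) summed to 15.3 to 18.9 CPM in scramble, 10.1 to 11.6 in scramble with LPS, 8.5 to 9.28 in KD and 3.38 to 5.73 in KD with LPS. The sums of these markers moved with the KD, but not every single marker did. PECAM1 passed edgeR's test as lower in KD with LPS (log2 fold change -0.72, adjusted p = 0.046) but not without LPS (-0.15, adjusted p = 0.55). The part of the markers in the results that follow was not tested. In bulk RNA, fewer cells of a type and less RNA per cell cannot be told apart.

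HLA-B, HLA-C, HLA-E, HLA-F, TAP1, TAP2 and TAPBP lie on chromosome 6 of GRCh38, in or near the MHC region. In GENCODE release 44, HLA-B spans chr6:31353872-31367067 and HLA-C chr6:31268749-31272130 on the minus strand, and HLA-E spans chr6:30489509-30494194 and HLA-F chr6:29722775-29738528 on the plus strand. TAP1 at chr6:32845209-32853816, TAP2 at chr6:32821833-32838739 and TAPBP at chr6:33299694-33314284 are on the minus strand. B2M lies outside the region at chr15:44711358-44718851, and CD1D at chr1:158178030-158186427, both on the plus strand.

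Promoter stretches of the members are shown because class I genes are known for NF-κB and interferon response elements close to their start sites. They come from RefSeq promoters on GRCh38.p14, which run from 250 bases before the start site to 50 after it, and 8 of the 9 members had an entry. Capitals mark matches to a κB-type motif (GGGNNTTNCC) or an interferon-response-type motif (GAAANNGAAA), searched on both strands, and overlapping matches are merged. The motifs were chosen after the promoters had been read. Each stretch runs 5′ to 3′ along the gene's strand.
TAPBP, chr6:33314079-33314146, minus strand: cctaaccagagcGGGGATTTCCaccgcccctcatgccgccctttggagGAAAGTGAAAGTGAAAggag
TAP1, chr6:32853755-32853850, minus strand: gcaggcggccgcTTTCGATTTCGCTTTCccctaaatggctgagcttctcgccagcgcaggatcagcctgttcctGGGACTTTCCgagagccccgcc
B2M, chr15:44711361-44711413, plus strand: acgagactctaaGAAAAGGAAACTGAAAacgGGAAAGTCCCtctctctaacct
HLA-B, chr6:31357335-31357368, minus strand: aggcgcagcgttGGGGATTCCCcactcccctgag
TAP2, chr6:32838776-32838809, minus strand: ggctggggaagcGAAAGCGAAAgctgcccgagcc
HLA-F, chr6:29723266-29723299, plus strand: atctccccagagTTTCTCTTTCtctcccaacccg
HLA-C, chr6:31272093-31272172, minus strand: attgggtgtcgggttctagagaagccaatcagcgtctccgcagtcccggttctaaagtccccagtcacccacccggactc
CD1D, chr1:158179867-158179946, plus strand: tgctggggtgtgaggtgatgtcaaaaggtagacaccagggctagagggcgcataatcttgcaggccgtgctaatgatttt

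TAPBP, TAP1 and B2M held both motifs in their windows, HLA-B held the κB-type motif alone, and TAP2 and HLA-F held the interferon-response-type motif alone. The windows of HLA-C and of both RefSeq starts of CD1D held neither, nor did that of the more downstream start of TAP1. Of all 35116 RefSeq promoters, 5.68% held the κB-type motif, 3.57% the interferon-response-type motif and 0.179% both. A match of letters is a description and not a bound site, and no match says only that these letters are not in the window.

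**Figure D1:**
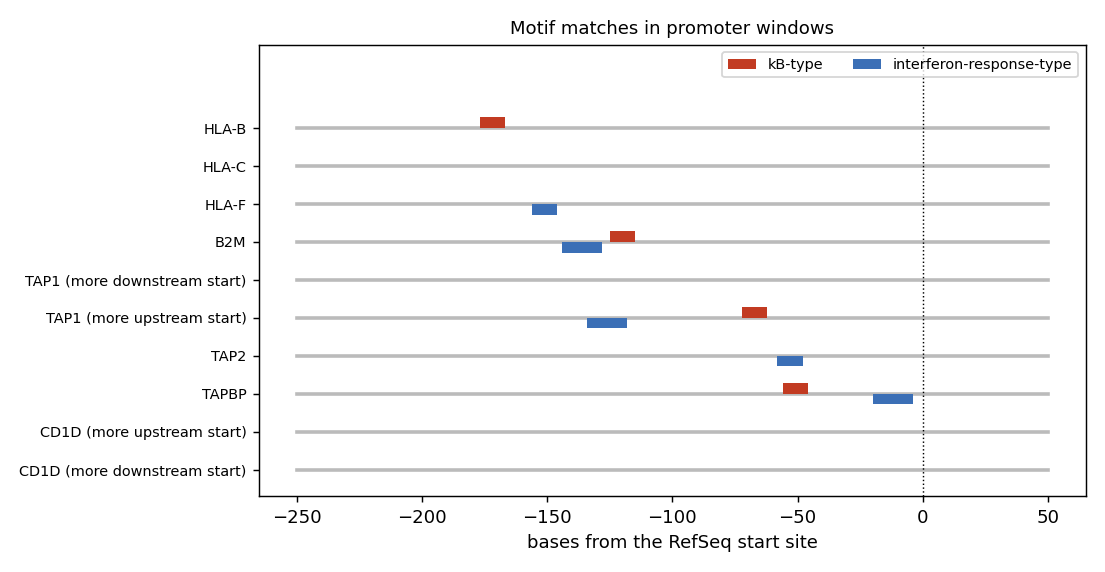
Motif matches in the promoter windows of the members, with the position in bases from the RefSeq start site on the horizontal axis and 1 line per start. Red boxes are κB-type matches and blue boxes interferon-response-type matches, and both lie in the windows of B2M, TAP1 and TAPBP.

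The transcripts of the pathway differed widely in level. Per kilobase of the canonical transcript, B2M was the most abundant member in scramble control at 710 ± 79.8 CPM per kb (SD, n = 3 libraries here and below). HLA-C followed at 91.6 ± 4.03, HLA-E at 61.1 ± 2.87, HLA-B at 34.9 ± 4.14 and TAPBP at 16.0 ± 0.99 CPM per kb. The heavy chains share sequence with one another, as described below, and whether the division of their reads affects this order was not tested. TAP2 at 7.26 ± 0.52 and TAP1 at 6.67 ± 0.57 CPM per kb were neighbours within their spread. HLA-F at 1.68 ± 0.44 and CD1D at 0.404 ± 0.086 CPM per kb were the lowest. In KD with LPS, HLA-E at 98.7 ± 6.61 and HLA-C at 90.9 ± 14.6 CPM per kb lay within their spread of each other, and TAP1 at 11.3 ± 0.58 stood above TAP2 at 4.88 ± 0.69 CPM per kb.

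Without LPS, linc-ADAIN KD lowered HLA-C, TAP2 and TAPBP by 18.5% to 19.1% and raised CD1D 3.04-fold, while HLA-B, HLA-E, HLA-F, B2M and TAP1 did not pass the test. Of the 9 members, 1 passed as higher and 3 as lower (adjusted p under 0.05 in edgeR's quasi-likelihood test with Benjamini-Hochberg adjustment), where 12.1% of the 16217 genes tested were higher and 15.1% lower. CD1D was also the only member past a 2-fold difference, a rule that 7.77% of all genes met. The median log2 fold change of the members was -0.14, beside 0.02 over all genes tested. Scaling by library size alone moved the median of all genes from 0.02 to 0.13 and the share of calls that were higher from 44.5% to 61.4%, and under it HLA-C (adjusted p = 0.072), TAP2 (0.18) and TAPBP (0.13) no longer passed.

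With LPS in both arms, KD cells had less TAP2 and TAPBP and more HLA-E than scramble cells, and CD1D no longer stood higher in KD. Among the 9 members, 1 passed as higher and 2 as lower, where 12.7% of 15981 genes were higher and 14.2% lower, and no member reached the 2-fold rule, which 8.48% of genes met. The median log2 fold change was -0.14 over the members and 0.03 over all genes. The share of calls that were higher was 47.2%, or 59.2% with library sizes alone.

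LPS raised HLA-E, TAP1 and TAPBP in scramble control, and HLA-B, HLA-E, B2M, TAP1 and TAPBP in KD, where CD1D fell. Only CD1D among the members passed the test of the interaction of KD and LPS. A call in 1 arm alone does not by itself show a difference between the arms. In scramble control 3 members passed as higher and 0 as lower, among 15920 genes of which 5.90% were higher and 8.38% lower. All 9 fitted values were positive there, and TAP2, CD1D and HLA-B stood next, with unadjusted p under 0.05 and adjusted p of 0.059, 0.077 and 0.17 in edgeR's test. In KD, 5 members passed as higher and 1 as lower, among 16169 genes of which 5.32% were higher and 6.03% lower. The 2-fold rule was met by 0 members in scramble (2.68% of genes) and by CD1D in KD (2.25% of genes). The members' median log2 fold change was 0.38 in scramble and 0.64 in KD, against 0.02 and 0.01 over all genes. The share of higher calls in KD was 46.9%, or 35.2% with library sizes alone. Each group of libraries enters 2 of these comparisons, so that they are not independent of one another.

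**Figure D2:**
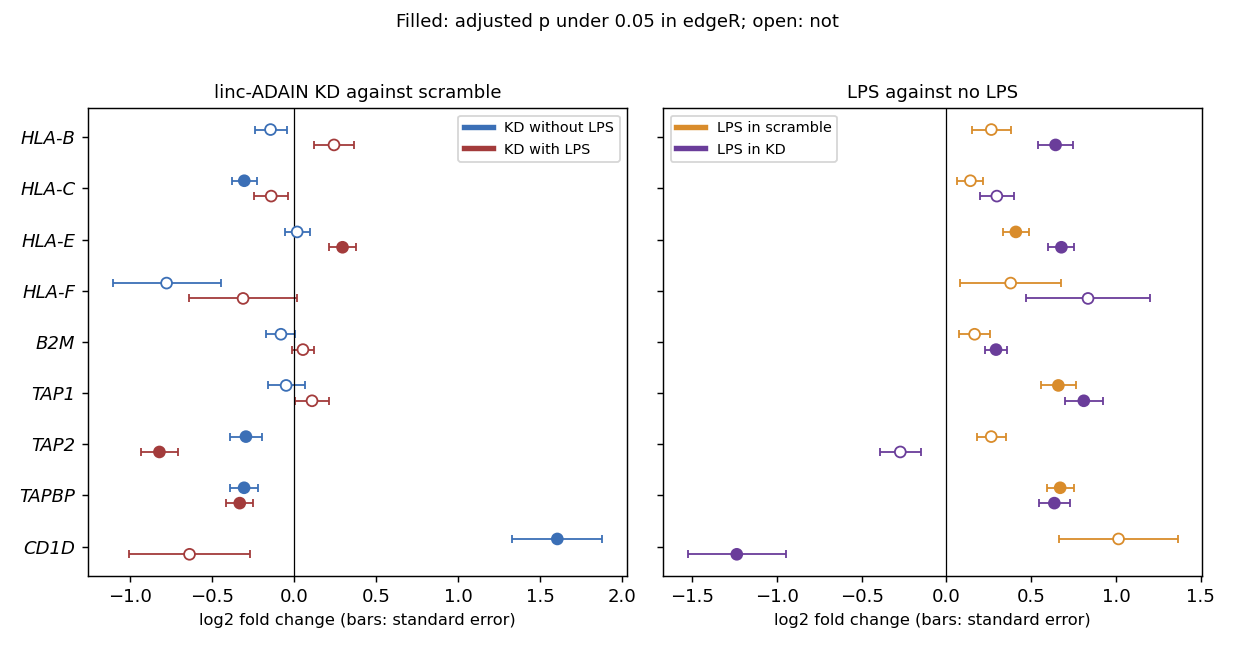
Fitted log2 fold changes of the 9 members (horizontal axis) with their standard errors, for linc-ADAIN KD against scramble on the left and for LPS against no LPS on the right. Filled points passed edgeR's test at an adjusted p under 0.05: 4 and 3 members in the KD comparisons without and with LPS, and 3 and 6 in the LPS comparisons in scramble and KD.

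The heavy chains differed in the comparisons they passed, and whether their changes differed from each other was not tested. HLA-C, a classical heavy chain that presents peptides to T cells and is read by killer-cell receptors, was at 135, 142 and 147 CPM in the scramble libraries and 111, 111 and 120 in KD. Every KD library lay below every scramble library, and the log2 fold change was -0.30 (SE 0.075, adjusted p = 0.010). With LPS, HLA-C was at 147, 165 and 151 CPM in scramble and 125, 166 and 130 in KD, where replicate 2 lay above all scramble libraries. The groups overlapped and the log2 fold change of -0.14 (SE 0.10, adjusted p = 0.37) did not pass, but without KD with LPS replicate 2 it was -0.29 (adjusted p = 0.040). The response of HLA-C to LPS was 0.14 in scramble (adjusted p = 0.27) and 0.30 in KD (adjusted p = 0.076), and the latter passed with DESeq2 (0.029). The difference between the arms in the LPS response of HLA-C was 0.17 (SE 0.13, adjusted p = 0.72 in edgeR's test).

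HLA-B, the other classical heavy chain among the members, was at 54.5, 59.5 and 46.9 CPM in scramble and 45.4, 50.3 and 49.3 in KD. These ranges overlapped, with a log2 fold change of -0.14 (SE 0.098, adjusted p = 0.31). With LPS it was at 57.3, 74.9 and 59.5 CPM in scramble and 67.7, 87.3 and 71.5 in KD, again with overlap (log2 fold change 0.24, SE 0.12, adjusted p = 0.17). Without scramble with LPS replicate 2 this became 0.37 (adjusted p = 0.032). LPS raised HLA-B in KD by a log2 fold change of 0.64 (SE 0.10, adjusted p = 7e-04), and all 3 exposed libraries lay above the unexposed ones. In scramble the LPS value was 0.26 (SE 0.12, adjusted p = 0.17) and the groups overlapped. The difference between the arms in this response was 0.39 (SE 0.17) and did not pass edgeR's test of the interaction (adjusted p = 0.37).

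HLA-E, which presents leader peptides of other class I chains to natural killer cell receptors, was the heavy chain with a rise under LPS in both arms. It was at 148, 162 and 157 CPM in scramble and 193, 220 and 202 in scramble with LPS, a log2 fold change of 0.41 (SE 0.077, adjusted p = 0.0042). In KD it went from 162, 148 and 162 CPM to 248, 270 and 237 with LPS, a log2 fold change of 0.68 (SE 0.077, adjusted p = 3.1e-05). In neither arm did the libraries overlap. KD without LPS left HLA-E at a log2 fold change of 0.02 (SE 0.076, adjusted p = 0.89). With LPS, every KD library was above every scramble library (0.29, SE 0.080, adjusted p = 0.014), a call that was lost without scramble with LPS replicate 3 (adjusted p = 0.058) or KD with LPS replicate 2 (0.083). The difference between the arms in the LPS response was 0.28 (SE 0.11) and did not pass the test of the interaction (adjusted p = 0.30).

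HLA-F, a class I chain of limited tissue expression that can reach the surface without peptide, was scarce, with 101, 124 and 149 counts in the scramble libraries and 52, 62 and 69 in KD. Scaled, this was 1.92, 2.36 and 3.20 CPM against 1.5, 1.15 and 1.70. All KD libraries were lower, but the log2 fold change of -0.78 had a standard error of 0.33 and did not pass (adjusted p = 0.11). The other HLA-F values were -0.31 for KD with LPS (SE 0.33), 0.38 for LPS in scramble (SE 0.30) and 0.83 for LPS in KD (SE 0.37), none past the test.

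Class I heavy chains are near-identical over parts of their length, and a program that divides reads among transcripts can shift them between genes. Of the 31-base words of the canonical transcripts in GENCODE release 44, 15.5% of those of HLA-B, 19.6% of HLA-C, 12% of HLA-E and 8.69% of HLA-F also occurred in transcripts of other genes. HLA-B and HLA-C shared most with each other, 10.7% and 10.8% of their words. The reads were therefore also taken as 1 sum over the 18 class I HLA genes and pseudogenes of the table, of which HLA-B, HLA-C, HLA-E and HLA-F held 67.7%. The sum was 541 ± 17.3 CPM in scramble, 643 ± 58.5 in scramble with LPS, 474 ± 18.7 in KD and 654 ± 78.2 in KD with LPS. LPS raised it in KD (log2 fold change 0.46, adjusted p = 0.0013), while the values for LPS in scramble (0.26, adjusted p = 0.052), KD without LPS (-0.19, adjusted p = 0.070) and KD with LPS (0.02, adjusted p = 0.90) did not pass in edgeR's test. DESeq2 called the first of these at 0.26 (adjusted p = 0.0091) and the second at -0.18 (adjusted p = 0.023), and the KD value with LPS changed sign without scramble with LPS replicate 1 (-0.03) or KD with LPS replicate 2 (-0.09).

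Within a library, the ratio of 2 genes' counts does not depend on the scaling. HLA-E counts stood at 1.06 to 1.15 times those of HLA-C in the scramble libraries, 1.32 to 1.33 times in scramble with LPS and 1.34 to 1.46 times in KD. In KD with LPS the ratio was 1.63 to 1.99, above that of every other library. Both this pair and the pair of transporter subunits were chosen after their values had been seen, so the ratios carry no test.

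B2M, the light chain that pairs with class I heavy chains and CD1D, was at 586, 693 and 731 CPM in scramble and 661, 624 and 610 in KD. The KD libraries lay within the range of the scramble libraries, with a log2 fold change of -0.08 (SE 0.089, adjusted p = 0.55), and scaling by library size alone turned it to 0.02. LPS brought B2M to 698, 754 and 782 CPM in scramble, which overlapped the unexposed libraries (log2 fold change 0.17, SE 0.092, adjusted p = 0.28), and to 796, 765 and 759 CPM in KD. In KD all exposed libraries were above the unexposed ones and B2M rose by a log2 fold change of 0.29 (SE 0.064, adjusted p = 0.0070), a rise of 22.5%. With LPS the arms differed by 0.05 (SE 0.069, adjusted p = 0.64). The difference between the arms in the LPS response of B2M was 0.14 (SE 0.11, adjusted p = 0.73). No 31-base word of B2M occurred in another gene.

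**Figure D3:**
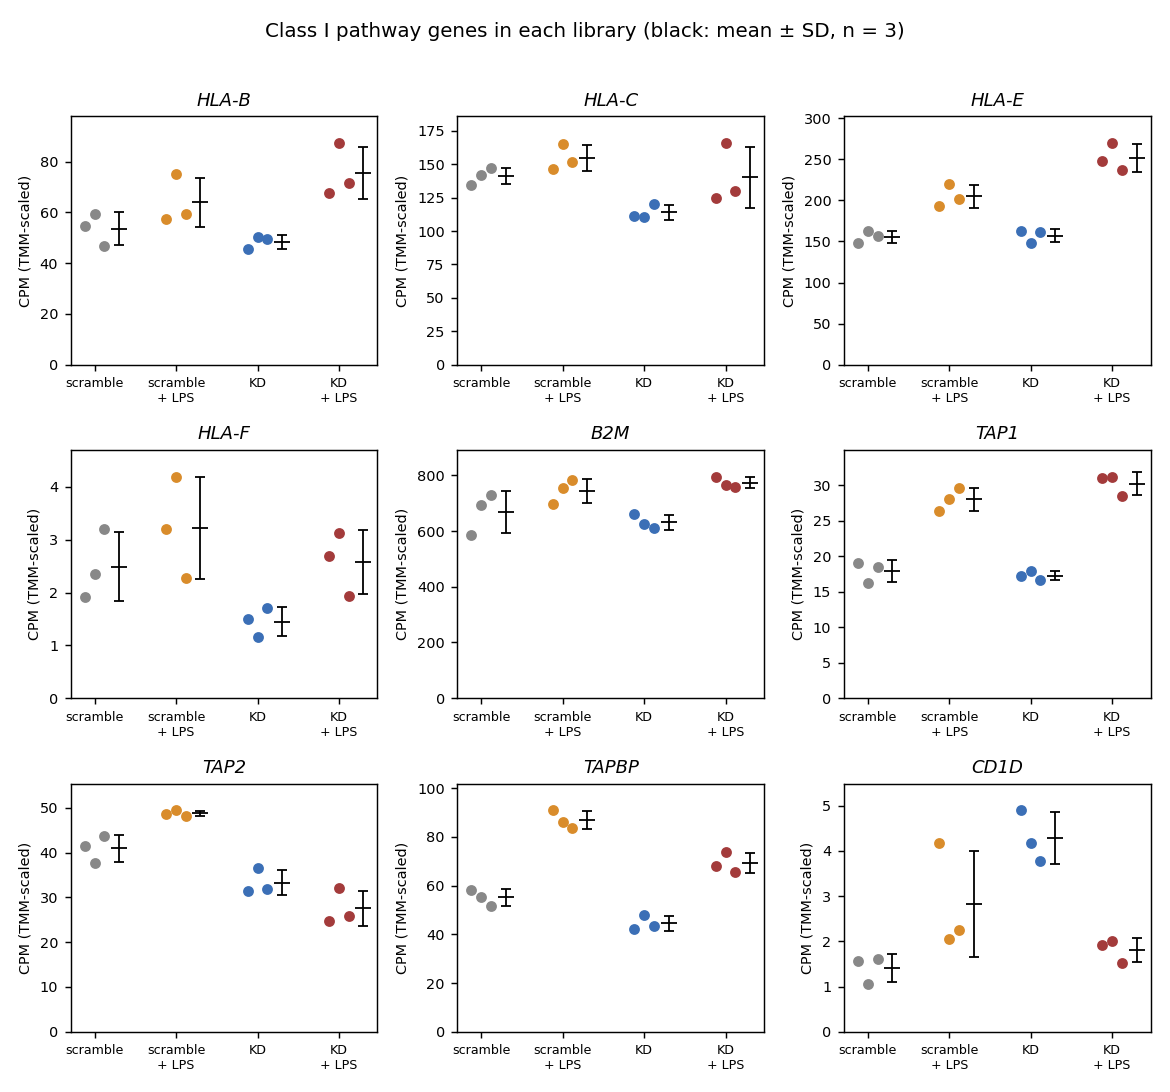
CPM of each member (vertical axes from 0, scaled by TMM) in the 12 libraries, grouped as scramble, scramble with LPS, KD and KD with LPS, with the mean and SD of 3 libraries in black. TAPBP and TAP1 stand higher with LPS in both arms, TAP2 stands lower in KD, and CD1D is at 3.78 to 4.90 CPM in KD and at 1.51 to 2.00 in KD with LPS.

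The subunits of the peptide transporter differed in the comparisons they passed, and whether their changes differed from each other was not tested. TAP1 was at 19.1, 16.2 and 18.5 CPM in scramble and 17.3, 17.9 and 16.6 in KD, which overlapped (log2 fold change -0.05, SE 0.11, adjusted p = 0.79, and 0.06 with library sizes alone). With LPS, TAP1 was at 26.4, 28 and 29.7 CPM in scramble and 31.1, 31.2 and 28.4 in KD, also with overlap. LPS raised TAP1 by a log2 fold change of 0.66 in scramble (SE 0.10, adjusted p = 0.0012) and 0.81 in KD (SE 0.11, adjusted p = 1.7e-04), and in both arms every exposed library was above every unexposed one. The call held in every alternative, and the difference between the arms was 0.16 (SE 0.14, adjusted p = 0.77).

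TAP2, the partner without which TAP1 forms no working transporter, was at 41.4, 37.8 and 43.6 CPM in scramble and 31.5, 36.5 and 31.8 in KD. All KD libraries were below the scramble libraries and the log2 fold change was -0.29 (SE 0.097, adjusted p = 0.042), although the call was lost without scramble replicate 1 or 3 or without KD replicate 1 or 3 (adjusted p = 0.11 to 0.12). With LPS, TAP2 was at 48.5, 49.5 and 48.2 CPM in scramble and 24.8, 32.0 and 25.8 in KD. There the KD libraries were lower by 43.4% and no ranges overlapped (log2 fold change -0.82, SE 0.11, adjusted p = 8e-05), a call kept in every alternative. The response of TAP2 to LPS was 0.26 in scramble (SE 0.084, adjusted p = 0.059), where the groups did not overlap and where DESeq2 (0.033), edgeR's own filter (0.047) and the replicate block (0.033) gave a call, and -0.27 in KD (SE 0.12, adjusted p = 0.20), where they did. The KD effect was thus more negative with LPS by 0.52 (SE 0.15), but this difference did not pass over all 17173 genes in edgeR's test (adjusted p = 0.11). It passed with DESeq2 (adjusted p = 0.032), without the filter on low counts (0.049) and without KD with LPS replicate 2 (0.036).

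The ratio of TAP1 to TAP2 counts was 0.423 to 0.461 in scramble, 0.544 to 0.616 in scramble with LPS and 0.490 to 0.548 in KD. In KD with LPS it was 0.977 to 1.25, above all other libraries. Both transporter genes share sequence with other annotated genes, since 35.5% of the words of TAP2 and 1.88% of those of TAP1 occurred in ENSG00000250264, a protein-coding gene that overlaps TAP2 on its strand. TAP1 overlaps PSMB9 and PSMB8-AS1 on the opposite strand, and whether the counting used the strand is not given in the sources used here. Reads of these overlapping genes could be divided differently by another annotation.

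**Figure D4:**
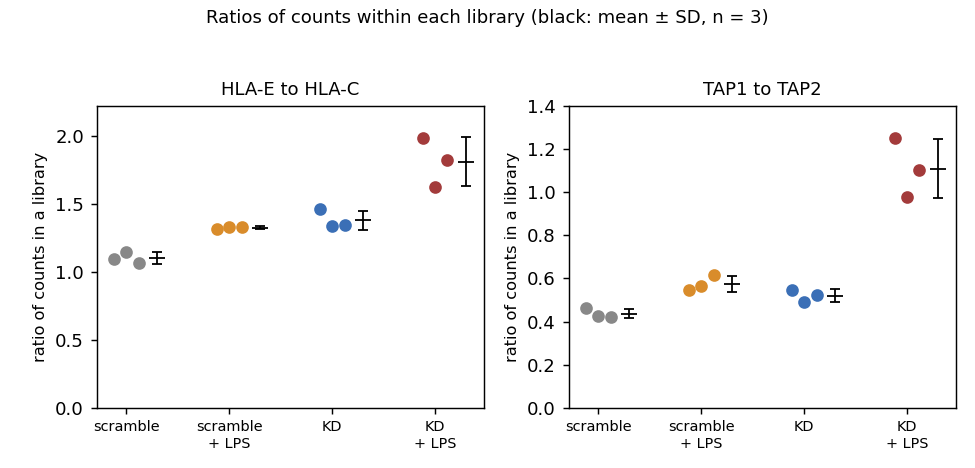
Ratio of counts of HLA-E to HLA-C (left) and of TAP1 to TAP2 (right) in each of the 12 libraries, with the mean and SD of 3 libraries in black. Both ratios are highest in KD with LPS, at 1.63 to 1.99 and 0.977 to 1.25.

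TAPBP, which encodes tapasin, responded to both LPS and KD, in opposite directions. It was at 58.4, 55.3 and 51.6 CPM in scramble and 42.0, 47.8 and 43.4 in KD. With LPS it was at 90.9, 86.2 and 83.6 CPM in scramble and 68.1, 73.6 and 65.6 in KD. The 4 groups did not overlap in any of the comparisons. KD lowered TAPBP by a log2 fold change of 0.31 without LPS (-0.31, SE 0.087, adjusted p = 0.021) and of 0.33 with LPS (-0.33, SE 0.084, adjusted p = 0.0091). The first call was lost without scramble replicate 1 or 2 or without KD replicate 1 or 3 (adjusted p = 0.057 to 0.087), and the second held in every alternative. LPS raised TAPBP by 0.67 in scramble (SE 0.079, adjusted p = 1.6e-04) and 0.64 in KD (SE 0.092, adjusted p = 2.9e-04), and the difference of -0.02 between the arms (SE 0.12, adjusted p = 1.0) was smaller than its error. TAPBP overlaps a lncRNA gene on the opposite strand, and 13.9% of its words occurred in other genes.

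CD1D was the lowest member per kilobase in every group other than KD, where HLA-F was lower, and it had the largest fitted differences of the members in all comparisons except KD with LPS, where TAP2 had the largest. It had 82, 56 and 75 counts in the scramble libraries and 170, 225 and 153 in KD. In CPM this was 1.56, 1.07 and 1.61 against 4.90, 4.18 and 3.78, with no overlap, and CD1D was higher in KD by a log2 fold change of 1.60 (SE 0.28, adjusted p = 9.9e-04). That value stayed between 1.44 and 1.71 in all alternatives and passed in each.

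With LPS the order of the arms changed. CD1D had 163, 62 and 96 counts in scramble with LPS and 68, 93 and 43 in KD with LPS, or 4.17, 2.05 and 2.25 CPM against 1.92, 2.00 and 1.51. Every KD library was below every scramble library, but replicate 1 of scramble with LPS stood far above its own group and the log2 fold change of -0.64 (SE 0.37, adjusted p = 0.23) did not pass. LPS lowered CD1D in KD by a log2 fold change of 1.24 (-1.24, SE 0.29, adjusted p = 0.011), which was lost without KD replicate 1 (adjusted p = 0.054). In scramble the LPS value was 1.01 (SE 0.35, adjusted p = 0.077) with no overlap of the groups, and it passed with DESeq2 (0.042), with the replicate block (0.041) and in the fit of all 12 libraries (0.048). The KD effect differed with LPS by -2.24 (SE 0.46, adjusted p = 0.020), so that CD1D was 1 of the 9 members, against 1.28% of 17173 genes, with an interaction of KD and LPS. The interaction was lost without scramble replicate 2 (adjusted p = 0.072), scramble with LPS replicate 1 (0.052, log2 value -1.84), KD replicate 1 (0.056) or KD with LPS replicate 3 (0.057).

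Over the 12 libraries, the genes whose pattern was most like that of CD1D, among the 11810 genes that averaged 50 counts or more, were MCM4, MTCO1P12 and ZSCAN2. Their root mean square differences from CD1D in centred log2 CPM were 0.38, 0.43 and 0.43. MCM4 (a subunit of the replicative helicase) was at 6.79 CPM in scramble, 8.87 in scramble with LPS, 11.9 in KD and 8.28 in KD with LPS. MTCO1P12 is a copy of a mitochondrial gene and may share reads with it.

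Around the members, 57 genes on 8 lists of the pathway were examined. The counts of genes on these lists that passed the adjusted test are to be read against the shares of all genes given above for each comparison. Among 9 transcription factors of class I genes, 3 passed as higher and 1 as lower in KD without LPS, and the same numbers in KD with LPS. IRF1, an interferon-induced activator of class I genes, was at 10.1 ± 1.32 CPM in scramble, 33.4 ± 3.74 in scramble with LPS, 17.3 ± 2.47 in KD and 67.9 ± 2.12 in KD with LPS. Both KD values passed, at 0.77 without LPS (adjusted p = 0.0021) and 1.03 with LPS (adjusted p = 4e-06).

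LPS raised 4 of the 9 factors in scramble and 4 in KD, and none passed as lower. IRF1 rose by 1.73 in scramble (adjusted p = 3.9e-06) and 1.98 in KD (adjusted p = 2.6e-08) on the log2 scale. NFKB1, a subunit of NF-κB, rose by 1.29 (adjusted p = 5.7e-06) and 1.67 (adjusted p = 3.9e-09). IRF2, which binds the same DNA element as IRF1, rose by 1.38 in scramble (adjusted p = 3.1e-06) and 0.89 in KD (adjusted p = 7e-05). RFXAP, part of the RFX complex at class I and class II promoters, rose by 1.07 in scramble (SE 0.23, adjusted p = 0.0086).

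The list of interferons and their receptors held 7 genes, of which the ligands IFNB1, IFNG and IFNL1 had no counts in any library. All 4 receptor chains rose with LPS in both arms. IFNGR2 (a chain of the interferon-γ receptor) rose by 1.41 in scramble (adjusted p = 4.5e-07) and 1.52 in KD (adjusted p = 5.1e-09), and IFNAR2 (a chain of the type I interferon receptor) by 1.11 (adjusted p = 5.5e-06) and 1.41 (adjusted p = 4.5e-07). In KD 2 of the 4 receptor chains passed as higher both without and with LPS, with IFNGR2 at 0.46 (adjusted p = 8.2e-04) and 0.59 (adjusted p = 5.2e-05).

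None of the 5 immunoproteasome and activator genes (PSMB8, PSMB9, PSMB10, PSME1 and PSME2) passed edgeR's test in KD without LPS or in either LPS comparison. Before adjustment, p was under 0.05 for 4 of the 5 as higher with LPS in scramble, for 2 with LPS in KD and for 0 in KD without LPS. The share of all genes under this unadjusted threshold was not determined. Counts before adjustment, for this list and those below, therefore have no share to be read against and are a description only. PSMB9, an interferon-inducible catalytic subunit whose gene overlaps TAP1, was at 11.3 ± 1.37 CPM in scramble, 14.9 ± 1.16 in scramble with LPS, 9.96 ± 0.76 in KD and 11 ± 0.94 in KD with LPS. It passed as lower in KD with LPS (log2 fold change -0.44, SE 0.14, adjusted p = 0.033), and its LPS value in scramble of 0.42 did not pass (adjusted p = 0.055). PSMB10 was at 0.46 for LPS in KD (adjusted p = 0.11). Of the 3 constitutive catalytic subunits, PSMB7 passed as higher in KD with LPS (0.25, SE 0.083, adjusted p = 0.041) and 0 of the 3 had even an unadjusted p under 0.05 elsewhere, with PSMB6 at 0.08 for LPS in KD (adjusted p = 0.76).

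Among the 6 genes of peptide trimming and loading in the endoplasmic reticulum, KD lowered 4 and raised 1 without LPS, and lowered 3 and raised 1 with LPS. ERAP1, the aminopeptidase that trims peptides to class I length, was at 136 ± 19.1 CPM in scramble and 91.9 ± 2.80 in KD, a log2 fold change of -0.56 (SE 0.10, adjusted p = 0.0013). With LPS it was at 185 ± 18.2 and 109 ± 8.91 CPM (-0.76, SE 0.092, adjusted p = 3.1e-05). CANX, the chaperone calnexin that holds new heavy chains, was the gene that rose in KD, by 0.24 (adjusted p = 0.040) and 0.37 (adjusted p = 0.0027), and it rose by 0.22 with LPS in KD (adjusted p = 0.048). LPS raised 2 of the 6 in scramble and 1 in KD.

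ERAP2, a related trimming enzyme, had 75 to 109 counts per library in scramble, 134 to 223 in scramble with LPS, 102 to 137 in KD and 58 to 90 in KD with LPS. The scaled levels were 1.91 ± 0.46, 4.98 ± 0.66, 2.68 ± 0.25 and 2.12 ± 0.23 CPM. LPS raised ERAP2 in scramble by a log2 fold change of 1.39 (SE 0.25, adjusted p = 0.0031), and with LPS it was lower in KD (-1.23, SE 0.26, adjusted p = 0.0032). In KD without LPS the value was 0.49 (adjusted p = 0.25) and for LPS in KD -0.34 (adjusted p = 0.59). The KD effect differed with LPS by -1.72 (SE 0.38, adjusted p = 0.031).

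**Figure D5:**
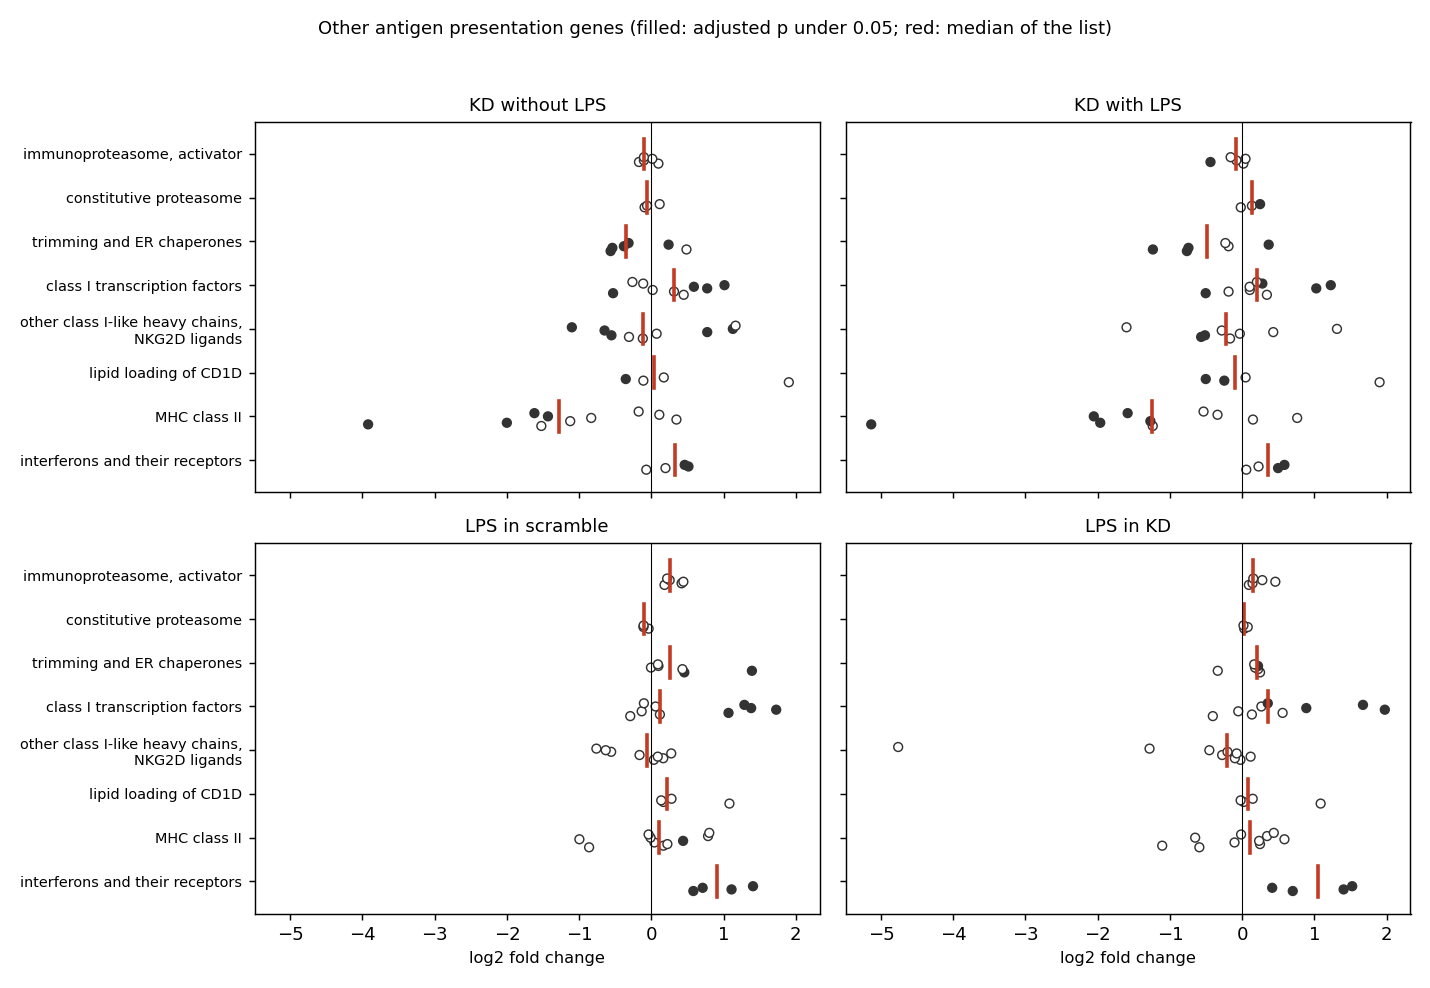
Fitted log2 fold changes (horizontal axis) of the tested genes on the 8 other pathway lists in the 4 comparisons, 1 point per gene, filled where the adjusted p was under 0.05, with the median of each list in red. In KD the MHC class II list has medians of -1.28 without LPS and -1.25 with LPS, and under LPS the 4 interferon receptor chains are all filled.

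MHC class II genes present peptides taken up from outside the cell. Of the 10 class II genes on the list, 4 passed as lower without LPS and 5 with LPS, and none as higher, with 1 higher at an unadjusted p under 0.05 without LPS. HLA-DPA1 was at 61.5 ± 3.73 CPM in scramble and 15.4 ± 1.76 in KD (log2 fold change -2.0, SE 0.11, adjusted p = 1.3e-07), and at 71.1 ± 4.97 and 18.2 ± 1.19 CPM with LPS (-1.96, SE 0.10, adjusted p = 9.5e-09). CD74, the invariant chain that guides class II molecules, was lower by 1.62 and 1.58 on the log2 scale (-1.62, adjusted p = 2.3e-05, and -1.58, adjusted p = 4.5e-06). HLA-DMA, which edits class II peptides, was at -1.43 (adjusted p = 7e-04) and -2.05 (adjusted p = 1.4e-05), and HLA-DPB1 was at -1.27 with LPS (adjusted p = 0.0080). Counts of HLA-DRB1 were 102 to 204 in scramble and 93 to 164 in scramble with LPS, against 0 to 17 in KD and 0 to 8 in KD with LPS, and they may include reads of other DRB genes. LPS raised 1 of the 10 in scramble, HLA-DQA1 (0.44, adjusted p = 0.032), and in KD 0 passed even before adjustment, with HLA-DMA at -0.65 (adjusted p = 0.25).

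Of 13 other class I-like heavy chains and ligands of the natural killer receptor NKG2D, 8 or 9 had enough counts to test, depending on the comparison. HLA-G, CD1A, CD1B, CD1C and CD1E had at most 10 counts in a library, so that CD1D was the CD1 gene with a measurable level. KD without LPS raised 2 and lowered 3 of the 9 tested, and with LPS 0 were higher and 2 of 8 lower. FCGRT, the heavy chain of the neonatal Fc receptor and a partner of B2M, was lower in KD at -0.55 (SE 0.11, adjusted p = 0.0025) and -0.51 (SE 0.13, adjusted p = 0.010). The NKG2D ligand ULBP2 was higher in KD without LPS (1.13, SE 0.28, adjusted p = 0.011) and ULBP3 lower (-1.10, SE 0.31, adjusted p = 0.021). None of the list passed under LPS in either arm (1 of 8 in scramble and 0 of 9 in KD before adjustment), with ULBP3 at -0.76 in scramble (adjusted p = 0.12) and MICA at -0.28 in KD (adjusted p = 0.28).

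CD1D takes its lipids from transfer proteins of the endoplasmic reticulum and lysosome. Of the 4 on the list (MTTP, PSAP, GM2A and NPC2), KD lowered 1 without LPS and 2 with LPS, and none passed as higher. MTTP had at most 27 counts in a library. Its KD value of 1.90 without and with LPS did not pass edgeR's test (adjusted p = 0.30 and 0.29). GM2A, the activator that lifts glycolipids out of membranes, was at -0.35 (SE 0.090, adjusted p = 0.012) and -0.50 (SE 0.091, adjusted p = 9.4e-04). None of the 4 passed under LPS (1 in scramble and 0 in KD before adjustment), with NPC2 at 0.28 in scramble (adjusted p = 0.074) and 0.15 in KD (adjusted p = 0.25).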

How the data were processed

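RNA was sequenced from 12 libraries made with a stranded mRNA kit. The authors pseudoaligned the reads to a GRCh38 transcriptome index with kallisto 0.44.0 after bcl2fastq 2.19 (per the submitters' processing notes) and deposited estimated counts per gene name, with no normalization for library size or length. The annotation release is not given in the sources used here, and the authors' own comparison used DESeq2 1.32.0. A division of reads among near-identical transcripts by kallisto can shift counts between class I HLA genes.

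Counts were rounded to whole numbers. The row without a gene name (0.235% to 0.306% of a library) was left out, and 0 other columns of samples were unused. In R 4.3.3, genes whose counts summed to 10 or more in the libraries fitted were retained, scaled by TMM and tested by edgeR 4.0.16 (quasi-likelihood F test, Benjamini-Hochberg adjustment over all genes tested), with an adjusted p under 0.05 as the threshold. Each comparison of groups used its 6 libraries, and the interaction used all 12. The standard error (SE) of a log2 fold change was derived as its absolute value divided by the square root of the test's F statistic. Members and lists were chosen with earlier results of these data known. Named genes were all 9 members, and of the other lists each gene past the test and a 2-fold difference, plus the gene with the smallest p of a list in each comparison. Some results that this rule asks for are not reported here. IRF1, IRF2, CANX, PSMB7, PSMB9 and ERAP2 are also given in comparisons where the rule did not ask for them. CPM per kb used canonical transcripts of GENCODE release 44. Alternatives were DESeq2 1.42.0, other scalings and filters, a block for the replicate number, a fit of all 12 libraries, and fits without single libraries. The fits were also run on simulated counts with changes of at least 2-fold and the same spread in every gene. Smaller changes were not simulated. With 3 libraries against 3, an exact permutation test cannot go below p = 0.1 and was not used. Libraries of a group correlated at 0.971 to 0.986 and differed by more than sampling noise, so none was a duplicate.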

Additional observations from a re-analysis of the deposited data

Results flagged for a closer look

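Among the 9 members, CD1D was marked for a closer look because its KD effect with LPS differed from that without LPS by -2.24 on the log2 scale, in the test of the difference over all 12 libraries (edgeR, adjusted p = 0.020). Of the genes on the other pathway lists, ERAP2 was marked on the same ground, with a difference of -1.72 (edgeR, adjusted p = 0.031). In both genes the KD value was positive without LPS (1.60 for CD1D and 0.49 for ERAP2, the latter short of the threshold) and negative with LPS (-0.64, short of the threshold, and -1.23). Both were at low levels, with 43 to 225 counts of CD1D and 58 to 223 counts of ERAP2 per library.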

How the results depend on the processing

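Of 45 member values (9 genes in 4 comparisons and the interaction), 28 kept their direction and their side of the threshold in every alternative, 6 lost and 7 gained the call in at least 1, and 4 changed sign in at least 1. Scaling by library size alone left 1 member past the test in KD without LPS in place of 4, with B2M at 0.02 and TAP1 at 0.056. For LPS in scramble, 5 members passed with DESeq2 and 6 with the replicate block in place of 3, and the summed class I HLA value passed with DESeq2 (0.26), without the filter on low counts (0.26), with edgeR's own filter (0.27) and with the block (0.26). The summed value in KD without LPS passed with DESeq2 (-0.18). For the interaction, 475 genes passed with DESeq2 and 431 without the filter, in place of 219, with 2 members each. Whether the replicate numbers pair the libraries was not settled. The deviations of same-numbered libraries correlated at -0.10 to 0.25 and in 4 of 12 pairs over 0.1. In 6 of the 12 the best match had the same number. A replicate block moved the genes past the test from 2274 to 3260 for LPS in scramble and from 4411 to 3857 in KD without LPS. With the replicate block, TAP2 in KD without LPS lost its call (adjusted p = 0.087) and HLA-B gained one in KD with LPS (0.024) and for LPS in scramble (0.030), and 231 genes passed the interaction.

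With single libraries left out, the members past the test numbered 2 to 4 in KD without LPS and 0 to 2 for the interaction, and the genes past it 1187 to 2106 for LPS in scramble and 92 to 243 for the interaction. The summed class I HLA value ranged from -0.088 to 0.093 in KD with LPS and from 0.19 to 0.32 for LPS in scramble, HLA-E in KD without LPS from -0.017 to 0.056, and the interaction of TAPBP from -0.070 to 0.024. The cause of these changes was not tested. HLA-F and CD1D had the fewest counts of the members.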
